A study of Salmo salar with 96 samples.

Results

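The genes described here are the 4 housekeeping genes *actb* (ACTB on the panel), *gapdh* (GAPDH), *ef1ac* (EF1Ac) and *rps20* (RPS20), out of 220 genes on an nCounter panel measured in 96 samples of Atlantic salmon (*Salmo salar*). They were taken by symbol from the raw count table. They had been chosen by how constant or how tissue-bound their measured levels were over stages and tissues, so those levels are a description and carry no test. The nCounter assay counts fluorescent barcodes bound to each mRNA without amplification, and 1 probe stood for each gene.

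Whole animals of 4 early stages came from the hatchery-kept Neva strain: 186 °d embryos (n = 4), 258 °d embryos (n = 4), alevin (n = 4) and 6 fry, where °d are degree days. Yolk sacs had been removed from embryos and alevin. Of the fry, 2 had 1119 °d and a normal diet, 2 had 1320 °d and a normal diet, and 2 had 1320 °d and a low-fat diet. The fry of 1119 °d came from the Laukaa hatchery and those of 1320 °d from the Lammi station, and the 2 ages lay on different hybridisation cartridges. Blood came from 4 further fry of 2212 °d from Lammi, 2 on each diet. Tissues were dissected from 8 parr aged 3 years: 4 immature hatchery fish of the Neva strain on a normal diet, of which fish 1 and 2 were males and fish 3 and 4 were females, and 4 wild males from the river Inarijoki, of which fish 5 and 6 were immature and fish 7 and 8 mature. River, rearing and the hybridisation cartridge cannot be told apart between the 2 kinds of parr, since no cartridge held both for a tissue.

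Housekeeping genes serve cell functions that nearly every cell needs, and are used to put samples with different amounts of RNA on 1 scale. Beta-actin, the protein that the symbol *actb* names, is a building block of the cytoskeleton. Glyceraldehyde-3-phosphate dehydrogenase, encoded by *gapdh*, is an enzyme of glycolysis and is abundant in skeletal muscle. Translation elongation factor 1 alpha, the product of the *ef1a* genes, brings aminoacyl-tRNA to the ribosome, and Rps20 is a protein of the small ribosomal subunit. Salmonid genomes were duplicated, and several genes of such families are kept as paralogs. The panel held 3 *ef1a* genes, and *ef1ac* lies next to *ef1ab* in the RefSeq annotation of Ssal_v3.1, with 0 annotated genes between them. In that annotation the *gapdh* and *rps20* probes match genes with those names as symbol or synonym, whereas the *actb* and *ef1ac* probes match loci named by number only. It was not tested whether a probe also binds a paralog, or whether the *actb* probe counts all beta-actin mRNA of a tissue. Levels of *actb* below are levels of this probe only.

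A normalized count is a raw count multiplied by a factor for its sample, made from the geometric mean of 6 reference genes. Since *ef1ac* and *rps20* are 2 of these 6 genes, their normalized levels are held towards constancy by the scaling itself. Raw counts and other scalings are therefore given beside them. The panel total of a library lay between 201761 and 480697 in whole animals, and between 47598 and 949899 in tissues. A normalized count of 20 was the background threshold. In 2 samples, hatchery muscle of fish 4 and wild liver of fish 5, the factor was above 3.0 and they were left out of the group means. In these bulk samples, fewer cells of a type and less RNA per cell cannot be told apart. Of the marker lists, those of liver, adipose tissue, and bone and skin were highest in the tissues with those names, at summed medians of 1.03133e+06, 15947 and 97122 normalized counts. The 3 liver genes also reached 305989 to 430621 in hatchery immature testis and 315281 to 368707 in wild mature testis. The 2 gonad receptor genes *fshr* and *lhr* summed to 2409 to 3267 in testis of both kinds of fish but to 68.9 and 78.8 in ovary. Brain markers were highest in ovary (3101, against 1569 in brain), eye markers in brain (469), and the 2 muscle markers in 186 °d embryos (720, against 272 in hatchery and 276 in wild muscle). Eye markers were lower in hatchery eye (87.2 to 188) than in wild eye (390 to 585).

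The 4 genes differed widely in how often they were detected. Raw counts of *rps20* lay above the negative control probes (mean plus 2 SD) in 96 of 96 samples, those of *gapdh* in 93, those of *ef1ac* in 79 and those of *actb* in 29. The raw count of *actb* had a median of 8.5 and ran from 1 to 58034. For *gapdh* the median was 2455 and the range 12 to 831455. In *ef1ac* the median was 60.5 and the range 4 to 330, and in *rps20* 23180 and 3644 to 126578. Thus *ef1ac* was a low but widespread signal, *rps20* a strong and universal one, and the levels of *actb* and *gapdh* turned on the tissue.

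**Figure D1:**
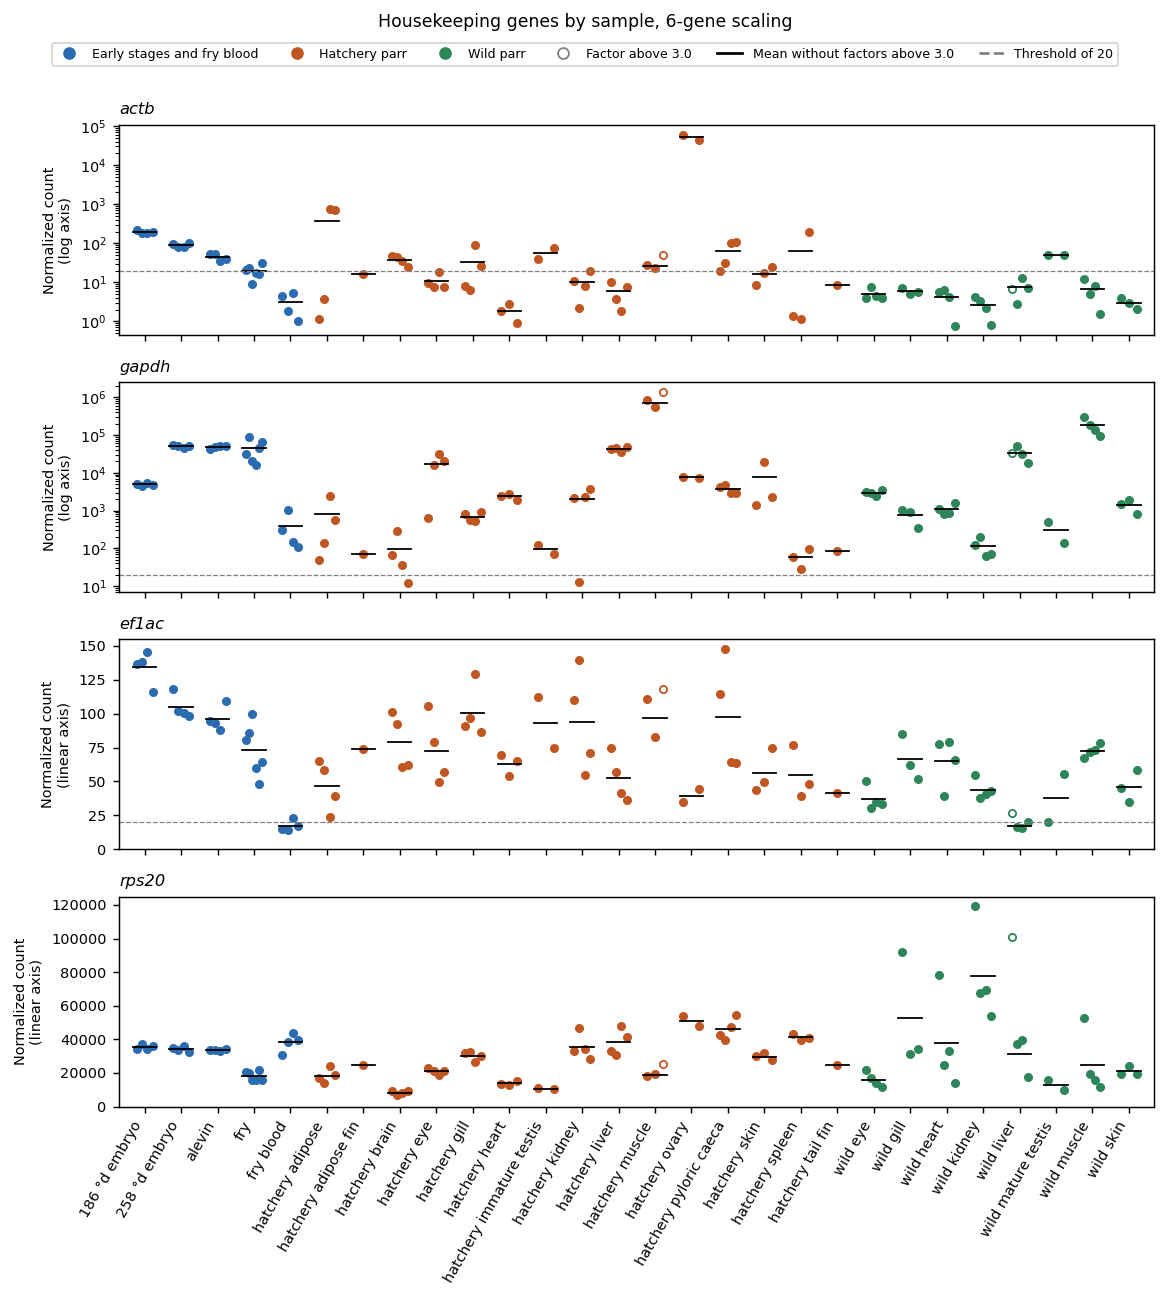
Normalized counts of the 4 genes in every sample, by group (points, 1 sample each; black lines, group means without samples whose factor was above 3.0, which are drawn as open points). Axes are logarithmic for actb and gapdh and linear for ef1ac and rps20. The 2 ovary samples of actb and the muscle samples of gapdh stand above all other groups.

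The *actb* probe gave a signal tied to the ovary. Its raw counts in the 2 ovaries were 58034 and 41843, and its normalized level was 52432 ± 10291 (SD, n = 2). The group with the next highest mean was hatchery adipose tissue at 362 ± 416 (SD, n = 4), and no sample of any other group reached either ovary. In heart, kidney, liver and skin of both kinds of parr the mean was under 20, and it was lowest in hatchery heart at 1.85 ± 0.968 (SD, n = 3). The ovary mean was at least 2622-fold above the lowest mean, when means under the threshold are set to 20.

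Levels above 20 normalized counts were otherwise found in embryos and alevin, testis, brain, 3 of 3 hatchery muscle samples (raw counts of 28, 19 and 8), 3 of 4 pyloric caeca samples, and some fish of adipose tissue, gill, spleen, skin and fry. Fewer samples were above the negative controls. In hatchery fish these were 1 of 3 for muscle, 2 of 4 for pyloric caeca and for adipose tissue, and 1 of 4 for gill. For spleen it was 1 of 3, for hatchery skin 0 of 3 and for fry 1 of 6. Levels in hatchery brain were 46.8, 45.6, 35.9 and 24.5 in fish 1 to 4. Testis held 38.6 and 75.4 in the immature hatchery males and 50.0 and 49.8 in the mature wild males. Testis, brain and alevin overlapped, and their spread does not resolve the order among them. Only 2 of the 25 steps between neighbours in the order of group means were free of overlap, that from ovary to adipose tissue and that from 186 °d to 258 °d embryos.

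Single hatchery fish stood out in *actb*. In adipose tissue the males had 1.13 and 3.81 normalized counts and the females 750 and 694. In the spleen fish 4, a female, had 193, against 1.34 in fish 1 and 1.12 in fish 3. Gill had 8.04, 6.49, 88.8 and 26 in fish 1 to 4, and pyloric caeca, the blind sacs of the fish gut, had 19.1, 31.8, 103 and 107. In adipose tissue, gill and pyloric caeca both females were therefore above both males, but in brain both females were below both males. The group mean in adipose tissue describes neither sex.

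*Snai1*, which encodes a zinc-finger repressor of transcription known for its part in epithelial-to-mesenchymal transition, had the pattern most like that of *actb*. Pearson's r between their group means of log2(normalized count + 1) was 0.92 over 28 groups, and 0.74 without the ovary. These groups share fish and scaling genes, so such r values are descriptions only. Ovary held 39417 and 48926 normalized counts of *snai1*. Adipose tissue held 37.2 and 30.5 in the males and 804 and 730 in the females, and spleen held 158 in fish 4 against 10.1 and 22.4 in the others. In these tissues *snai1* was thus high where *actb* was high, but in pyloric caeca it was 49.1, 18.0, 54.9 and 19.5 in fish 1 to 4, in another order than *actb*. Next in likeness came *rpabc2a*, a subunit of RNA polymerases, with r = 0.84, and the Hippo pathway kinase *lats1a* with r = 0.79, but these fell to 0.47 and 0.30 without the ovary. In female adipose tissue *lats1a* had 139 and 128 against 31.6 and 48.6 in males, while *rpabc2a* had 477 and 644 against 459 and 500. *Fshr* stayed at 4.01 to 11.3 in all 4 adipose samples, but ovary itself held only 28.8 and 39.9. At that level this gene could not show a small share of ovary RNA. The part of these genes, or of the tissue they come from, in the *actb* values was not tested.

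*Gapdh* was highest in muscle. Hatchery muscle had raw counts of 831455, 462603 and 223878 in fish 1, 3 and 4, and wild muscle 123079, 217143, 155976 and 117311 in fish 5 to 8. In hatchery muscle 84.9% to 92.4% of all panel counts of a sample were *gapdh*, and in wild muscle 47.6% to 66.3%. Normalized levels were 698908 ± 183414 (SD, n = 2, without fish 4) and 180499 ± 91580 (SD, n = 4). No sample of another group reached the lowest wild muscle sample, at 91694, although 1 fry came close at 88313.

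The next level of *gapdh* was shared by the later whole animals and the liver. It was 43289 ± 4793 (SD, n = 4) in hatchery liver and 33847 ± 16663 (SD, n = 3) in wild liver, against 49950 ± 3930 in 258 °d embryos. At the lower end of the order, brain had 64.6, 279, 35.9 and 12.2 normalized counts in fish 1 to 4, with 3 of 4 samples above the negative controls. Spleen had 59.0, 28.0 and 94.0, and the 2 fin samples had 72.2 and 86.4. The adipose fin was not above the negative controls. The fold between the highest and the lowest group mean was 11580, from hatchery muscle to spleen. Of 25 steps between neighbours in the order, 3 had no overlap: from hatchery to wild muscle, from wild muscle to 258 °d embryos, and from ovary (7564 and 7510) to 186 °d embryos.

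Within some tissues *gapdh* differed by more than 10-fold between fish. Hatchery eye had 625 normalized counts in fish 1 but 15687, 31160 and 20667 in fish 2 to 4, and hatchery kidney had 13 in fish 2 but 2199, 2271 and 3737 in fish 1, 3 and 4. The kidney sample of fish 2 was not above the negative controls. Hatchery skin had 1428, 19272 and 2246 in fish 1, 3 and 4. In eye the myogenic factor gene *myf5b* was also lowest in fish 1, at 20.8 in fish 1 against 91.8, 51.5 and 111 in fish 2 to 4. The summed level of the 2 muscle markers, *myf5a* and *myf5b*, was 34.6 to 188 in hatchery eye, 19.3 to 63.3 in wild eye, and 212 to 297 in hatchery muscle. In kidney it did not move with *gapdh*, being 34.9 or less in every hatchery fish. The part of muscle RNA in the eye values was not tested.

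Over all groups, the genes most like *gapdh* were *gnrhrb*, a receptor of gonadotropin-releasing hormone, with r = 0.78, the retinoid X receptor gene *rxrgab* with r = 0.75, and *myf5b* with r = 0.75, each over 28 groups. Without hatchery muscle they were 0.74, 0.68 and 0.74. *Rxrgab* had 4960, 2456 and 5955 normalized counts in hatchery muscle, and 66.5, 257, 630 and 562 in hatchery eye of fish 1 to 4, in the same fish order as *gapdh*.

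*Ef1ac* was the most even of the 4 genes after 6-gene scaling, at a low level. Group means ran from 134 ± 12.5 (SD, n = 4) in 186 °d embryos to 17.4 ± 3.94 (SD, n = 4) in fry blood, and wild liver was beside blood at 17.5 ± 2.23 (SD, n = 3). In blood the raw counts were only 10, 8, 13 and 17, and in wild liver 4, 12, 6 and 14, so both lie near background. Between 134 and 37.2 (wild eye) every group of at least 2 samples overlapped its neighbour. The fold from highest to lowest mean was at least 6.70 with 20 as the floor. Its nearest genes in pattern were *tead2* (r = 0.68), *tead3a* (r = 0.64) and *tead1c* (r = 0.59), which encode transcription factors of the Hippo pathway.

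*Rps20* ran from 8289 ± 1047 (SD, n = 4) in brain to 77630 ± 28665 (SD, n = 4) in wild kidney, a 9.37-fold range. Above brain came immature testis (11226 and 10164), mature testis (15972 and 10078) and hatchery heart (13788 ± 1312, n = 3). At the upper end were wild gill at 52458 ± 34401 (SD, n = 3), ovary (53636 and 47872) and pyloric caeca at 45916 ± 6507 (SD, n = 4). Brain was below immature testis without overlap, and that was the only one of 25 neighbouring steps so separated. Of a sample's panel counts, *rps20* made up 40.7% to 48.6% in fry blood and 42.8% to 51.7% in wild kidney, but 8.02% to 10.2% in brain. The genes nearest in pattern were *pitx1b* (r = 0.76), a homeobox gene, *prkch* (r = 0.74), a protein kinase C gene, and *foxp3a* (r = 0.72), known in mammals for regulatory T cells.

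Ratios of 2 genes within a sample need no scaling. The log2 ratio of *ef1ac* to *rps20* was the steadiest of the 6 pairs, with an SD of 1.09 over 26 group means, from -10.99 in fry blood, where *ef1ac* was near background, to -6.73 in brain. *Gapdh* over *rps20* had an SD of 3.70 and ran from -9.55 in spleen to 5.39 in hatchery muscle. *Actb* over *rps20* was 0.04 in ovary and -7.52 in 186 °d embryos, the next highest among groups with every sample above the negative controls. Even the steadiest pair thus moved by more than 4 log2 units over groups.

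The early stages showed 4 different courses, drawn in the plot of raw and scaled counts by stage. *Actb* had 214, 185, 180 and 193 normalized counts in 186 °d embryos, and its mean went from 193 ± 15 over 89.8 ± 11.5 and 45.4 ± 8.84 to 19.7 ± 7.31 in fry. The steps were 2.15-, 1.98- and 2.30-fold with no overlap between neighbouring stages, but alevin and fry overlapped in raw counts and with TMM, DESeq2 size factors and positive controls. Only 1 of 6 fry lay above the negative controls, so the last step runs into background. *Gapdh* went from 4963 ± 390 to 49950 ± 3930 between the 2 embryo stages, 10.1-fold, and the later stages overlapped. *Ef1ac*, itself a scaling gene, went from 134 to 72.9 ± 19.0 over all 4 stages. Neighbouring stages overlapped at every step, but 186 °d embryos and fry did not. In raw counts and with TMM, DESeq2 size factors or positive controls, its steps from 186 °d to 258 °d and on to alevin had no overlap. *Rps20*, also a scaling gene, was level from 35530 ± 1339 to 33711 ± 552 in alevin. It was then 18327 ± 2892 in fry, without overlap at that last step. With DESeq2 size factors the earlier steps of *rps20* had no overlap either. Its step from 186 °d to 258 °d also had none in raw counts, with the 4 reference genes that are not members and with positive controls. With TMM its step from 258 °d to alevin had none.

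**Figure D2:**
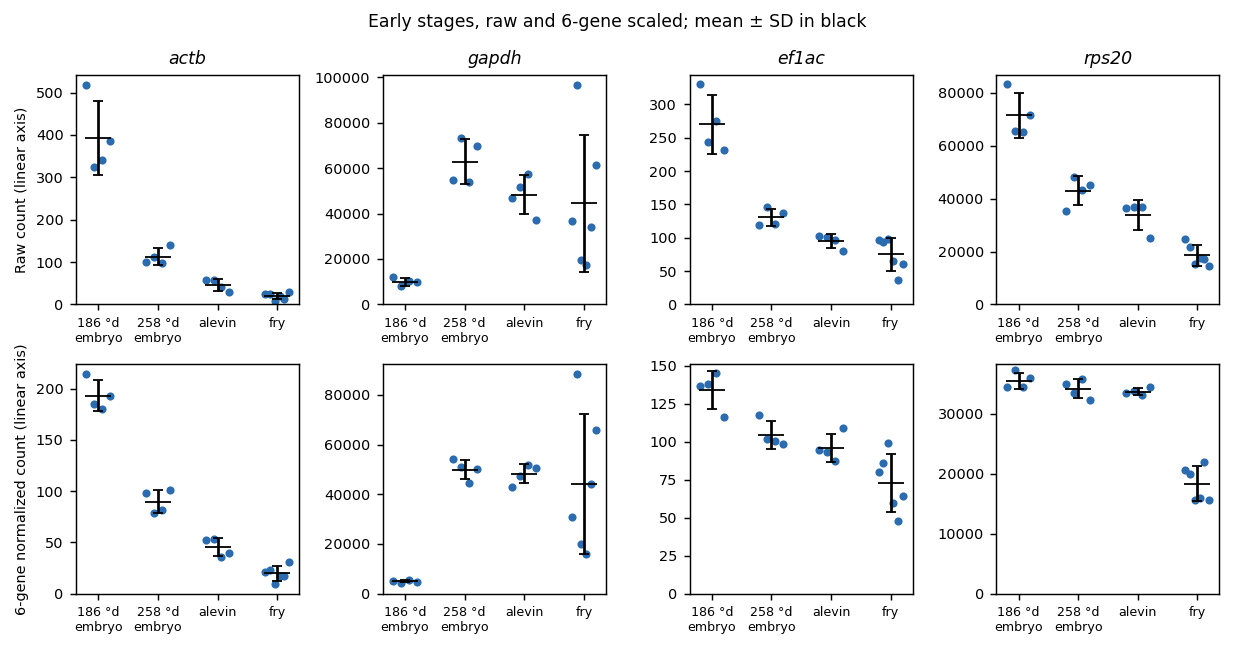
Raw counts (upper row) and 6-gene normalized counts (lower row) of the 4 genes in 186 °d embryos, 258 °d embryos, alevin (4 samples each) and 6 fry, on linear axes; points are samples and black marks are means ± SD. Raw rps20 is highest in 186 °d embryos, while scaled rps20 is level until alevin; gapdh is lowest in 186 °d embryos in both rows.

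Without scaling the courses changed in part. The raw mean of *rps20* was 71474 at 186 °d and 42929 at 258 °d, then 33746 for alevin and 18502 for fry, a 3.86-fold range against 1.94-fold after scaling. Raw *ef1ac* went from 270 to 75.0, 3.60-fold against 1.84-fold. For *gapdh* the raw step between embryos was 6.26-fold. For *actb* the first step was 3.48-fold in raw counts. With the fry mean set to 20, its scaled range was at least 9.65-fold. The factors were 0.414 to 0.569 in 186 °d embryos and 0.838 to 1.29 in fry, whereas the geometric mean of the positive control probes, added in equal amounts, was 1817 to 1904 and 1501 to 1824. The directions from 186 °d embryos to fry were the same raw and scaled, but the sizes depended on the scaling for all 4 genes.

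Over all 26 groups with at least 2 samples, the SD of the log2 group means was 0.72 for *ef1ac*, 0.76 for *rps20*, 2.83 for *actb* and 3.68 for *gapdh*, against a panel median of 1.23. Counted from the most constant of 219 genes, they ranked 21, 30, 215 and 218. The 4 reference genes that are not housekeeping candidates ranked 2 (*rxrbaa*), 25 (*prkar1aa*), 36 (*vdrab*) and 51 (*vdraa*). The paper had picked these 4 genes, *ef1ac* and *rps20* as reference genes because their coefficient of variation over the samples was low. The same genes also set the scaling behind these ranks. Their low ranks were therefore partly built in and are no independent sign of constancy. The other housekeeping candidates ranked 71 (*rpabc2b*), 100 (*hprt1*), 105 (*rpabc2a*), 118 (*ef1ab*) and 145 (*ef1aa*). *Ef1ac* thus varied less than either of its paralogs on the panel, *ef1aa* (SD 1.498) and *ef1ab* (SD 1.32), though at 68.7 normalized counts on average against 7221 and 36475 for those probes.

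Among the 4 members, the ranks of *ef1ac* and *rps20* moved most with the scaling. With the 4 reference genes that are not members, *ef1ac* ranked 49 and *rps20* 58 of 218, with SDs of 0.90 and 0.95. In raw counts they ranked 62 and 41 of 218, and with TMM, a scaling over the whole panel, 32 and 60 of 215. With DESeq2 size factors they ranked 20 and 63 of 216. Of the 4 reference genes that are not members, *rxrbaa* ranked 8 with TMM and 1 with DESeq2 size factors. In the same order of scalings *prkar1aa* ranked 46 and 61, *vdrab* 52 and 55, and *vdraa* 116 and 106. The SD of *vdraa* was 1.23 with TMM, above a panel median of 1.18, and 1.180 with DESeq2 size factors, against 1.188. With positive controls *rps20* ranked 18 and *ef1ac* 54 of 218. The geometric mean of those controls ran from 178 to 2320 in hatchery adipose tissue and from 403 to 2129 in hatchery muscle. In fry blood it ran only from 1316 to 1670. Scaling to positive controls thus multiplies samples of some tissues by widely different factors. *Actb* and *gapdh* were among the 8 most variable genes under each of these scalings. Their own values under all 6 scalings are in the plot of spread by scaling.

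**Figure D3:**
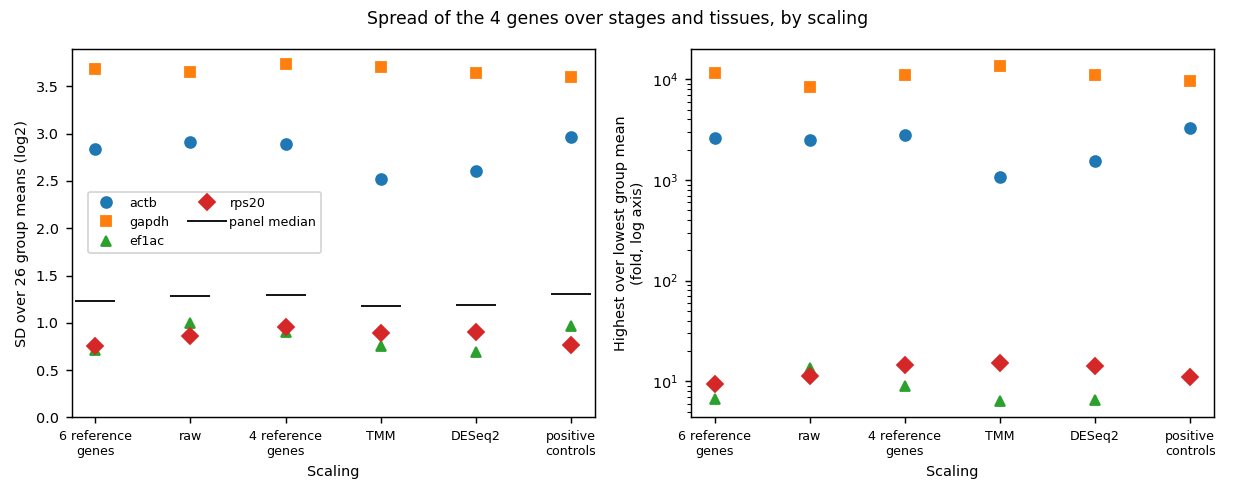
Left, SD over 26 group means of log2(count + 1) for the 4 genes under 6 scalings, with the median of the panel as a bar; right, fold between the highest and the lowest group mean on a log axis, with means under 20 set to 20. Under every scaling ef1ac and rps20 lie under the panel median, and actb and gapdh above it.

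Stages and tissues by themselves gave different ranks. In the 4 early stages *ef1ac* ranked 54 and *rps20* 78 of 178 genes, with SDs of 0.37 and 0.46 against a panel median of 0.50. In tissues and blood they ranked 12 and 31 of 219, with SDs of 0.69 and 0.80 against 1.28. The early ranks turned on the scaling. In raw counts they were 127 and 128 of 186, with SDs of 0.82 for both against a panel median of 0.62, and with positive controls 122 and 118 of 180. With the 4 other reference genes *ef1ac* ranked 94 and *rps20* 115 of 182. With DESeq2 size factors they ranked 89 and 90 of 171, with SDs of 0.512 and 0.514 just above a median of 0.505. Under each of these scalings both varied more than the median gene. With TMM they ranked 59 and 70 of 174, on the more constant side. Among the tissues both lay under the panel median rank with each scaling, at 12 to 39 for *ef1ac* and 14 to 73 for *rps20*.

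Sex was compared as values only, since 2 males against 2 females cannot give an exact permutation p below 0.33. *Ef1ac* was higher in every male than in every female in 7 of 11 hatchery tissues and lower in 1. Muscle, skin and spleen had only 1 male and heart only 1 female, and such tissues separate more easily. In brain it was 101 and 92.4 in males and 60.4 and 62.0 in females, in eye 105 and 78.8 against 49.8 and 56.9, in kidney 110 and 139 against 54.6 and 71.3, and in pyloric caeca 114 and 148 against 64.5 and 64.0. Adipose tissue, liver and spleen had the same order, whereas skin had 43.6 in the only male and 49.6 and 74.5 in females. Of these skin samples, 0 of 3 were above the negative controls. Such separation with males higher was found in 29% of all pairs of a gene and a tissue, and with males lower in 27.3%. The tissues of 1 fish are not independent of each other, and males and females lay on different cartridges in every tissue but adipose, so sex, fish and cartridge cannot be told apart. The number of tissues with males higher was 9 in raw counts, where the panel share was 39.0%, and 7 with the 4 other reference genes, where it was 34.2%. It was 8 with TMM (28.0%), with 2 lower, and 5 with positive controls (23.8%).

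**Figure D4:**
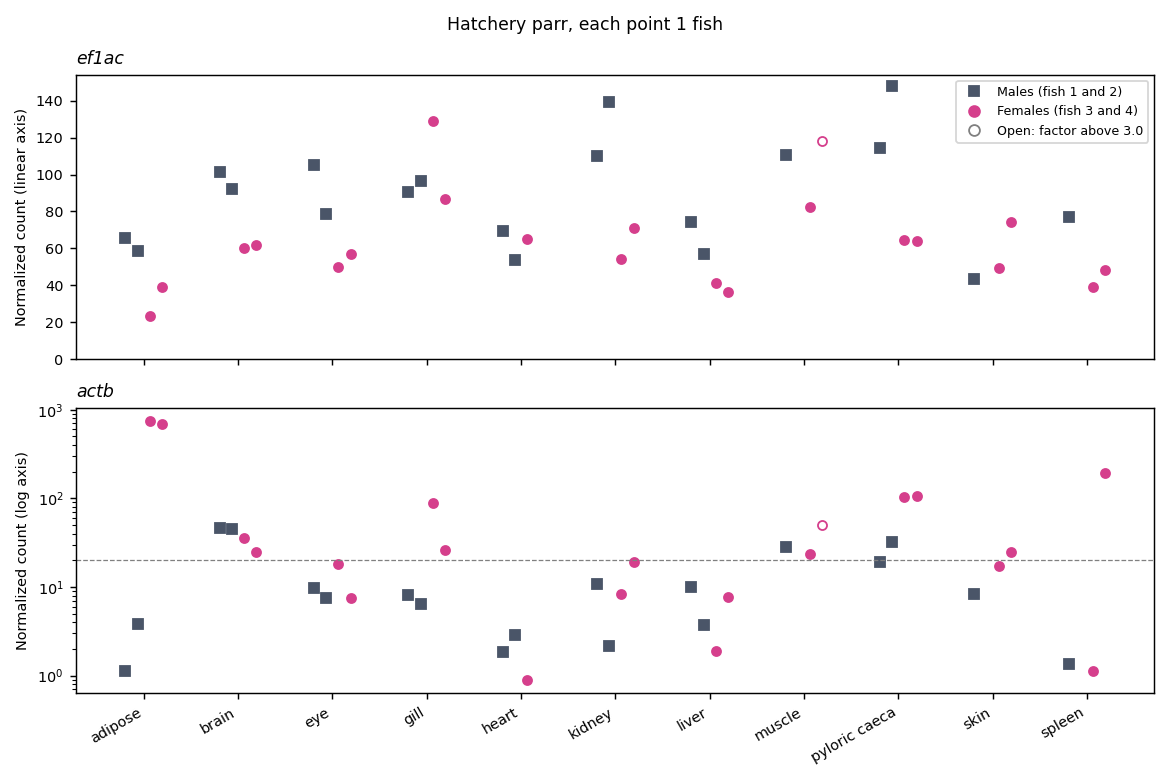
Normalized counts of ef1ac (upper, linear axis) and actb (lower, log axis, dashed line at 20) in 11 tissues of the 4 hatchery parr; squares are the males (fish 1 and 2), circles the females (fish 3 and 4), and the open circle is a sample whose factor was above 3.0. The males lie above the females in 7 tissues for ef1ac, and actb is 750 and 694 in female adipose tissue against 1.13 and 3.81 in males.

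For *actb* both females were higher in 4 of the 7 tissues with a mean of 20 or more in either sex, and lower in 1, the brain. The 4 tissues were adipose tissue, gill, pyloric caeca and skin, and skin had only 1 male. Samples above the negative controls were 2 of 4, 1 of 4, 2 of 4 and 0 of 3 in these tissues, so much of this order lies in background. *Rps20* was higher in every female than in every male in 5 of 11 tissues and lower in 2. Over all pairs of a gene and a tissue, females were higher in 27.3% and lower in 29.0%. The direction for *rps20* turned on the scaling. In raw counts it was higher in every female in 0 tissues and lower in 5, where the panel shares were 11.3% and 39.0%. With positive controls it was higher in 3 and lower in 2. In wild males *gapdh* was higher in every immature than in every mature fish in 4 of 7 tissues and lower in 0. All pairs of a gene and a tissue gave 20.6% and 24.2%. Gill had only 1 mature fish and skin only 1 immature fish, and such tissues separate more easily. Wild muscle is an example, with 305096 and 186158 normalized counts in the immature and 139048 and 91694 in the mature fish. In raw counts *gapdh* was higher in every immature fish in 2 of 7 tissues and lower in 1, where the panel shares were 8.31% and 27.7%.

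Wild and hatchery parr were compared in the 7 tissues sampled from at least 3 fish of each kind. This contrast was not used to choose the genes. Of 23 pairs of a member and a tissue that passed the filter (a mean of 20 or more in 1 of the groups), 9 were called at an adjusted p under 0.05 by edgeR, 8 of them lower and 1 higher in wild fish. Over all genes 41.8% of 1130 such pairs were called, 30.3% lower and 11.5% higher. In 3 of the 23 pairs (*actb* in gill and muscle, *ef1ac* in liver) the wild mean was under 20, so that they passed only through the group where they were high. Among pairs with a mean of 20 or more in both groups, counted so after the data were seen, 7 of 20 member pairs were called, 6 lower and 1 higher, against 41.2% of 935 pairs over all genes. The share of members called was thus not above that of the panel. By tissue, the share of all genes called, in brackets lower and higher in wild fish, was 56.1% (31.6%, 24.6%) in eye, 24.9% (21.4%, 3.48%) in gill and 34.3% (18.2%, 16.1%) in heart. It was 66% (46.9%, 19%) in kidney, 23.9% (14.7%, 9.2%) in liver, 38% (34.8%, 3.16%) in muscle and 54.2% (47.1%, 7.19%) in skin. With immature wild males only, 2 of 23 member pairs were called (*gapdh* in heart and *rps20* in kidney), against 22.1% of all pairs. With male hatchery fish only it was 4 of 22, against 31.5%. *Actb* passed the filter in 2 of the tissues, gill and muscle, and the other 3 genes in all 7. All samples were kept in these tests, with factors above 3.0 too.

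*Gapdh* was lower in wild fish in 4 of the 7 tissues. In kidney the wild fish had 120, 204, 63.1 and 71.7 normalized counts and the hatchery fish 2199, 13, 2271 and 3737, with fish 2 at background and below all wild fish (log2 fold change -4.16, SE 1.14, adjusted p = 0.00985, edgeR). In eye the wild fish had 3045, 2940, 2375 and 3441 against the hatchery values given above, of which fish 1 again lay below them (log2 fold change -2.53, SE 0.78, adjusted p = 0.0161, edgeR). With male hatchery fish only, adjusted p was 0.0749 in kidney and 0.141 in eye. Without fish 5 it was 0.0502 in eye. In muscle the log2 fold change was -2.37 (SE 0.65, adjusted p = 0.0149, edgeR) with no overlap, and -1.95 with adjusted p = 0.0604 without fish 4, 0.0562 without fish 6 and 0.0615 without fish 7. Heart had 2500, 2795 and 1901 in hatchery and 1097, 830, 853 and 1601 in wild fish, without overlap (log2 fold change -1.13, SE 0.30, adjusted p = 0.0219, edgeR), but adjusted p was 0.105 with the 4 other reference genes and 0.0594 to 0.0902 without fish 1, 2, 6 or 7.

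In the remaining tissues *gapdh* was not called. In skin, where fish 3 alone held 19272, the log2 fold change was -2.44 (SE 0.94, adjusted p = 0.0565, edgeR), and it was -0.02 with male hatchery fish only. Liver gave -0.36 (SE 0.37) and gill gave 0.12 (SE 0.35). The eye marker list and the muscle markers named above also differed between hatchery and wild eye, and their part in the *gapdh* difference was not tested.

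*Ef1ac* was lower in wild fish in eye and kidney, and in liver its wild values were at background. Its mean went from 72.7 to 37.2 normalized counts in eye (log2 fold change -0.96, SE 0.29, adjusted p = 0.0157, edgeR). Only 1 hatchery fish, fish 3 at 49.8, lay within the wild range of 30.2 to 50.3. Liver had 74.5, 57.2, 41.4 and 36.5 in hatchery and 26.9, 16.8, 15.8 and 20.1 in wild fish, without overlap (log2 fold change -1.46, SE 0.40, adjusted p = 0.0114, edgeR). But these wild values rest on raw counts of 4 to 14, with 0 of 4 above the negative controls. The pair passed the filter only through hatchery fish, and the size is poorly determined. Without fish 1 adjusted p was 0.0535 (edgeR). In kidney the log2 fold change was -1.10 (SE 0.32, adjusted p = 0.0123, edgeR), and it was -0.55 with adjusted p = 0.127 under TMM. The other 4 tissues were not called.

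*Rps20* was the only member called higher, in kidney. Wild kidney had 119340, 67783, 69465 and 53930 normalized counts and hatchery kidney 33177, 46567, 34298 and 28496, without overlap (log2 fold change 1.12, SE 0.36, adjusted p = 0.0191, edgeR). The raw counts were 56601 to 126578 and 28916 to 43070, also without overlap. With the 4 other reference genes adjusted p was 0.0840, and without fish 1, 3 or 4 it was 0.0621, 0.0575 and 0.0654. Wild fish 5 had the highest normalized *rps20* of the wild fish in all 6 of its tissues, at 92143 in gill, 78499 in heart and 52889 in muscle, but in only 2 of 6 in raw counts. Its other 6 tissues were not called, with log2 fold changes from -0.49 in skin to 1.45 in heart.

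*Actb* in muscle was 27.9, 23.4 and 49.8 normalized counts in hatchery and 12.4, 5.14, 8.02 and 1.56 in wild fish, without overlap (log2 fold change -2.34, SE 0.57, adjusted p = 0.0113, edgeR). These are raw counts of 28, 19 and 8 against 5, 6, 9 and 2, with 1 of 3 and 0 of 4 samples above the negative controls. The pair passed the filter only through hatchery fish, and the size of the difference is poorly determined. In gill the log2 fold change was -2.42 (SE 1.05, adjusted p = 0.107, edgeR), with 88.8 in fish 3 and the wild fish at 5.16 to 7.10, 0 of 3 of them above the negative controls. This pair too passed the filter only through hatchery fish.

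**Figure D5:**
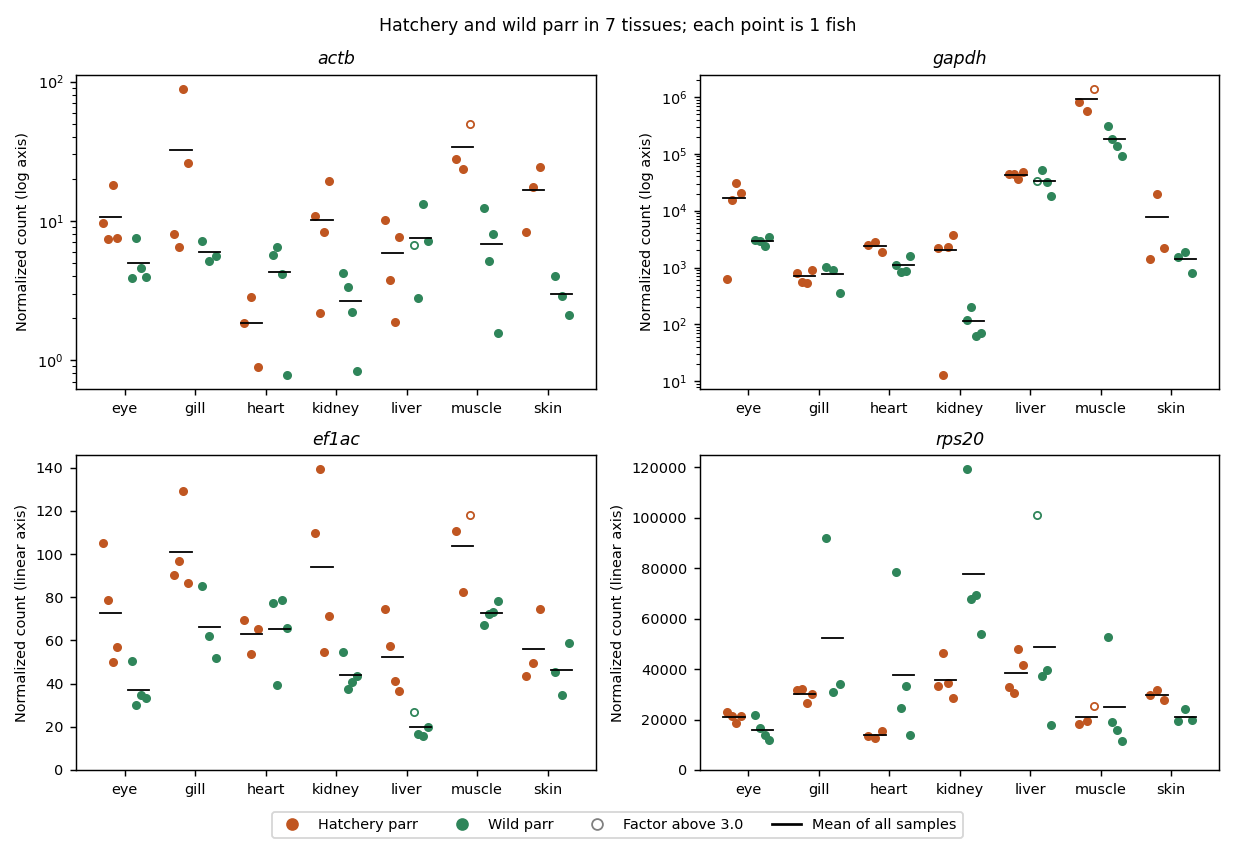
Normalized counts of the 4 genes in hatchery and wild parr in 7 tissues (points, 1 fish each; open points, factor above 3.0; black lines, means of all samples). Axes are logarithmic for actb and gapdh and linear for ef1ac and rps20; rps20 in kidney and gapdh in muscle do not overlap between the 2 kinds of fish.

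The other 9 housekeeping candidates and reference genes were called in 15 of 63 pairs (23.8%), 7 higher and 8 lower in wild fish. Over all genes 41.8% of pairs were called. The median log2 fold change was -0.14 against -0.46 over all genes. Of these 9 genes, 4 are among the 6 scaling genes, so their fold changes are held towards constancy by the scaling itself. Calls fell on these scaling genes all the same. *Vdraa* was called higher in wild kidney, liver and skin (log2 fold changes 1.07, 2.49 and 0.90). *Rxrbaa* was called lower in the same tissues (-1.02, -1.23 and -0.65), and *prkar1aa* in eye and *vdrab* in skin were called higher. The factor behind the members' fold changes rests in part on these genes. No test of the difference between the medians was made.

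With the fish as the unit, each gene's log2 levels were taken relative to the midpoint of the hatchery and wild means of the tissue and averaged over tissues. The sets of tissues were not equal. Fish 2 had 5 tissues, without muscle and skin, fish 4, 5 and 8 had 6, and the others 7. *Gapdh* was lower in wild fish by 1.38 (fish means -1.17 to -0.39 in wild and -0.37 to 1.40 in hatchery fish) and *ef1ac* had a difference of -0.69 (-0.53 to -0.06 against 0.12 to 0.54), both without overlap. For *gapdh* the gap was narrow, from -0.371 in hatchery fish 2 to -0.386 in wild fish 5. The hatchery females had 1.32 and 1.40 and the hatchery males 0.22 and -0.37. For *ef1ac* the females had 0.12 and 0.29 and the males 0.51 and 0.54. All wild fish were males, so sex is mixed with origin here. The exact two-sided permutation p was 0.0286 for both, which is the smallest that 4 fish against 4 can give, and 0.0808 after adjustment over 215 genes. Such a p under 0.05 was found for 35.3% of these genes and an adjusted p under 0.05 for 0 of them. With the 4 other reference genes and with TMM both exact permutation p were 0.0571 and the fish overlapped, and the *ef1ac* difference was -0.37 with TMM. *Ef1ac* also overlapped with no scaling, and *gapdh* with the negative controls subtracted (exact permutation p = 0.143). For *actb* the difference was -0.96 (exact permutation p = 0.0857) and for *rps20* 0.32 (exact permutation p = 0.6). The median over all genes was -0.32. Without fish 5 the *rps20* difference was -0.046.

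Diet was compared in fry of 1320 °d and in blood, with 2 samples each. In whole fry, *gapdh* had 44189 and 65967 normalized counts on the low-fat diet and 20011 and 16105 on the normal diet (log2 fold change 1.61, SE 0.60, adjusted p = 0.255, edgeR). The 2 fry of 1119 °d on a normal diet had 30951 and 88313, with the low-fat values between them. These 2 fry differed from the others in age, site and cartridge together, so they give no normal-diet range for 1320 °d. In blood *gapdh* went the other way, at 147 and 106 on the low-fat and 304 and 1038 on the normal diet (log2 fold change -2.41, SE 0.65, adjusted p = 0.907, edgeR). Of the genes tested, 1 of 172 (0.581%) was called in whole fry and 0 of 100 (0%) in blood, and no member was among them by edgeR. At an unadjusted p under 0.05 there were 14 and 3 genes, and by DESeq2 2 and 1 after adjustment. DESeq2 gave *gapdh* adjusted p-values of 0.00268 in whole fry and 0.00398 in blood. For *ef1ac* and *rps20* the log2 fold changes were -0.49 and 0.25 in whole fry and 0.43 and 0.26 in blood, none called.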

How the data were processed

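Raw counts per gene were deposited by the authors from the nCounter instrument (100 ng RNA a sample, 8 cartridges of 12) and were analysed here. The authors also deposited normalized signal values, made in nSolver by scaling to 6 reference genes. That table held 211 genes and 0 of the members. The 6-gene factors were therefore computed here from the raw counts, and the raw counts were multiplied by them. For the genes of that table the products differed from the deposited signal by at most 0.0094% over 7426 values with a count of at least 100. No genome build for probe design was named in the sources used here. Here 169 probes were matched by accession to the RefSeq table of Ssal_v3.1.

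The members and lists were chosen with earlier results of these data known. The genes named are the 4 members, the other 9 housekeeping candidates and reference genes, and the 3 genes most like each member by Pearson's r. Marker genes named beside them were chosen after their values were seen. Means leave out samples with a factor above 3.0, and tests keep them. Wild and hatchery parr, and diets, were compared with edgeR's quasi-likelihood test (edgeR 4.0.16, R 4.3.3) on raw counts with the 6-gene factor as offset, with Benjamini-Hochberg adjustment over all genes with a mean of at least 20 in a group. Fish means were compared by exact permutation (scipy 1.17.1), with adjustment over all 215 genes in place of the members alone. The tissue midpoints were taken once from the true labels and not made anew in each permutation. Alternatives used DESeq2 1.42.0, limma 3.58.1, TMM, positive controls, other reference genes and left-out samples. The edgeR script was tested on simulated data. The closest replicates differed beyond counting noise (chi-square over its degrees of freedom 4.57). Tissues of 1 fish are not independent, and where the labels name no separate animals the p-values measure only the spread between samples. The files had 0 columns without a sample.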

Additional observations from a re-analysis of the deposited data

Results flagged for a closer look

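*Ef1ac* in 258 °d embryos had 1 sample apart from the others, replicate 1 at 118 normalized counts, where the next highest had 102. The gap was 0.834 of the range of the 4 samples. Of 68 sets of samples looked at in this way, 1 had such a sample, and chance gives about 1 in 20.

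*Rps20* went opposite ways in wild against hatchery parr in 2 tissues, with no overlap in either. The wild mean was 2.18-fold the hatchery mean in kidney and 0.711-fold in skin. The difference between the tissues was not tested.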

How the results depend on the processing

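The fold between the highest and the lowest group mean, 2622 for *actb*, was 1062 with TMM, 1546 with DESeq2 size factors, 3271 with positive controls and 18.1 without the ovary. It was 11.7 to 2622 when each replicate was left out, since without replicate 3 or 4 the ovary has 1 sample and drops out. For *gapdh* (11580) it was 2991 without hatchery muscle and 2359 to 18597 when each replicate was left out, the lowest without replicate 3. For *ef1ac* (6.70) it was 13.5 with no scaling, 8.90 with the 4 reference genes that are not members and 11.6 with positive controls. It was 6.41 with TMM, 6.58 with DESeq2 size factors and 5.23 without 186 °d embryos. For *rps20* (9.37) it was 14.6 with those 4 genes, 15.1 with TMM, 14.3 with DESeq2 size factors and 6.33 without wild kidney. The fish-level difference of *rps20* was -0.046 to 0.56 when each fish was left out. Of the 472 calls over 7 tissues, the count was 266 with no scaling and 254 with immature wild males only. The 9 member calls, of which 7 had a mean of 20 or more in both groups, became 2 with immature wild males only and 4 with male hatchery fish only. In whole fry the 1 gene called for diet became 0 with the 4 genes, with TMM and with no scaling, 2 with DESeq2, and 0 to 5 when each sample was left out. In blood the 0 genes became 3 with no scaling and 1 with DESeq2. The causes were not tested. Over the members' single tests, 415 alternatives kept direction and side of the threshold, 38 lost the call, 16 gained one and 27 changed in value, with 0 reversed calls. The 415 include alternatives of tests that were not called at first. All 38 fell on the 9 member calls. The most were for *gapdh* in muscle (9 lost, 10 kept) and heart (8 lost, 11 kept), the fewest for *ef1ac* in eye (1 lost, 18 kept).

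No paired analysis was possible because the groups compared share no replicate numbers. The fixed cartridge block was not run, since no cartridge held both kinds of fish for a tissue. Chosen after seeing the data, a random cartridge block gave 451 calls, 8 of them members. Hatchery and wild parr shared no cartridge, so this block cannot separate a cartridge effect from origin. No conclusion on the cartridge is drawn from its calls. Low counts limit *actb* and *ef1ac*.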
